A study of Homo sapiens and Mus musculus with 33 samples.

Results

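Of the 40266 peaks called over the H3K18cr and H3K18ac ChIP-seq libraries of HCT116 cells, 499 (1.24%) lost at least 1 log2 unit of both marks after MS275. HCT116 is a human colon carcinoma line, and MS275 (entinostat) inhibits the class I histone deacetylases. The cells received 5 µM MS275 or the vehicle DMSO for 18 h. Each mark and treatment has 3 ChIP libraries, each treatment has 1 input library, and RNA-seq has 4 libraries per treatment. A peak was taken when the mean of the 3 MS275 libraries lay at least 1 log2 unit under the mean of the 3 DMSO libraries for H3K18cr and again for H3K18ac, and the mean of the 6 DMSO libraries was at least 5. The peaks were thus chosen on their measured ChIP values, so those changes are given as a description and carry no test. A log2 value here is the log2 of the reads in the peak after scaling to library size, as deposited, and a change of -1 is a reduction to 50% of the DMSO level.

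H3K18ac and H3K18cr are the acetylated and crotonylated forms of lysine 18 of histone H3. Acetyltransferases such as p300 can place either acyl group, class I histone deacetylases can remove either, and both marks are known from active promoters and enhancers. Bromodomain proteins read acetyl-lysine, while YEATS domain proteins also read crotonyl-lysine. ChIP-seq measures where a mark is enriched relative to the rest of the library. No added reference chromatin is described in the sources used here, so a lower value is a lower share of the reads of that library and not a lower amount of the mark in the cell.

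The members were promoters for the most part. Sequences before the start of 7 genes with a member at their transcription start site (TSS) are shown for their letters or for values given below: JUND and FRAT1 hold the cAMP response element letters, RNA of ZNHIT2 and GTPBP6 fell and RNA of SIK2 and EGR1 rose in the paired fit, and PIGA is among the largest falls. Each is the RefSeq promoter sequence (GRCh38) cut to the part inside the member and outside annotated exons, written 5′ to 3′ on the strand of the gene. Capitals mark TGACGTCA, CCGGAAG and CCAAT on either strand.
JUND, chr19:18281623-18281872, minus strand: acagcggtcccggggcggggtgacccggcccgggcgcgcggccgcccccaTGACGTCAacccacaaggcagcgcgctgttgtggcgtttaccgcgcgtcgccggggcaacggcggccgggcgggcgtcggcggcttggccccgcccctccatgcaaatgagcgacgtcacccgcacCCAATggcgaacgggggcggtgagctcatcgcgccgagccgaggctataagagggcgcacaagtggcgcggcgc
FRAT1, chr10:97319021-97319270, plus strand: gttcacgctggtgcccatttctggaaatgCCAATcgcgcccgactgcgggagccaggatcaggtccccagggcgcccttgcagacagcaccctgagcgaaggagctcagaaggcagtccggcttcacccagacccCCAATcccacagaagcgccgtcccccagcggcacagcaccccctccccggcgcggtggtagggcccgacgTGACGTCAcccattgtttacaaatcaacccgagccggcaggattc
ZNHIT2, chr11:65117702-65117951, minus strand: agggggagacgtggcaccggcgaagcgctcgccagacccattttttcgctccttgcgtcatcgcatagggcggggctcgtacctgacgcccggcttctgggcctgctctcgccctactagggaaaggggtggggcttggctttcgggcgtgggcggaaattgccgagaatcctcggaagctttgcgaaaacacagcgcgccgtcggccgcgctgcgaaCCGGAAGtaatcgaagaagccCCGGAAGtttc
SIK2, chr11:111602199-111602448, plus strand: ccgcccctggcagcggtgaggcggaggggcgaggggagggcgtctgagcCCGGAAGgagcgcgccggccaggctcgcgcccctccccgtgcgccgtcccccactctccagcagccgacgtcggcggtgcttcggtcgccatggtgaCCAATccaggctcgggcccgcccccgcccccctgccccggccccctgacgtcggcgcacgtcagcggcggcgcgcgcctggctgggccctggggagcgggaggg
EGR1, chr5:138465229-138465478, plus strand: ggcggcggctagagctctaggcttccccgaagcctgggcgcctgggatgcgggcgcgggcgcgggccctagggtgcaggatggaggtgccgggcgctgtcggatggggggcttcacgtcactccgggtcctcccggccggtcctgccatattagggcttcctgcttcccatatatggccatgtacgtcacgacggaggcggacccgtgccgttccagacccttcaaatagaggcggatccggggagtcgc
PIGA, chrX:15335555-15335700, minus strand: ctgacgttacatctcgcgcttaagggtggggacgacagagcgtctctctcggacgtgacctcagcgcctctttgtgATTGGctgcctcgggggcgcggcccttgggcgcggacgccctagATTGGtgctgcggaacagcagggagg
GTPBP6, chrX:318797-319046, minus strand: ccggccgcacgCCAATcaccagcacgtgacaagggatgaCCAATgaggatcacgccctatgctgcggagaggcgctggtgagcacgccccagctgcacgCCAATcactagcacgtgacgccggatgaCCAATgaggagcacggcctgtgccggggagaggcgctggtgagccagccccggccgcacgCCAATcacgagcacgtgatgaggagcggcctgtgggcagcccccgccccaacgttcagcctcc
The JUND and FRAT1 stretches each held 1 match to TGACGTCA. At the FRAT1 member H3K18cr was 7.21, 6.97 and 7.45 in DMSO and 6.17, 5.55 and 6.35 in MS275, and H3K18ac was 7.53, 7.94 and 7.85 in DMSO and 6.44, 6.42 and 6.35 in MS275. ZNHIT2 held 2 matches to CCGGAAG and SIK2 held 1. GTPBP6 held 5 matches to CCAAT, PIGA and FRAT1 held 2 each, and JUND and SIK2 held 1 each, whereas the EGR1 stretch held none of the 3 motifs. GC content ranged from 63.6% in ZNHIT2 to 80.0% in SIK2.

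The 40266 peaks form 1 list called for all libraries together, so presence or absence of a peak cannot be compared between replicates. The ChIP libraries had between 2236551 and 5730094 reads in peaks and the inputs had 1550122 (DMSO) and 1374609 (MS275). The RNA libraries had 35608533 to 53415604 counts in genes. The cells expressed the epithelial markers EPCAM, CDH1, KRT8, KRT18, KRT19, CLDN7 and CDX2 at 14.5 CPM (counts scaled to the library total) or more in every RNA library, while VIL1 stayed between 0 and 1.28 CPM. Leukocyte markers reached at most 0.585 CPM, endothelial markers 0.958 CPM, and of the fibroblast markers COL1A1 lay between 5.15 and 17.0 CPM and the others at or under 0.477 CPM.

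A mean DMSO value of at least 5 was reached by 29311 peaks. Of these, 729 met the fall in H3K18cr and 1762 met it in H3K18ac, and the 499 members were 68.4% of the first set and 28.3% of the second. Without the DMSO minimum 518 peaks met both falls. In the plot of both changes the members form the lower left corner of one continuous cloud of peaks.

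**Figure D1:**
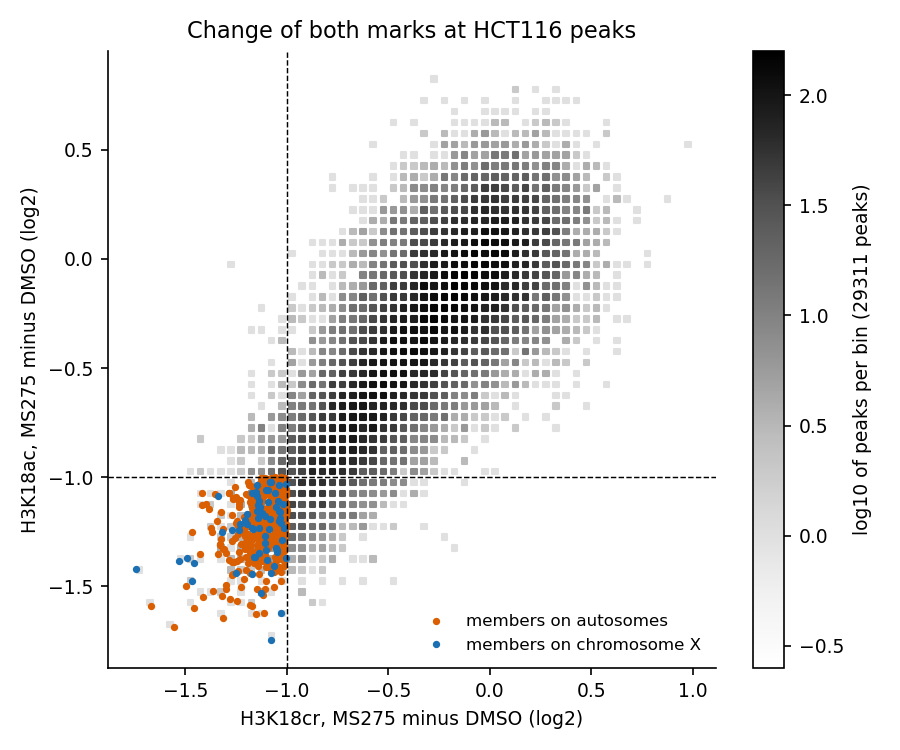
Change of H3K18cr (x axis) and H3K18ac (y axis) with MS275, as the mean of 3 MS275 minus the mean of 3 DMSO log2 values, for the 29311 peaks with a mean DMSO value of at least 5. Grey squares are bins shaded by the number of peaks, coloured points are the 433 members on autosomes and the 66 on chromosome X, and dashed lines mark -1, beyond which the members lie by construction.

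The threshold cut through this cloud. Just inside it lay the peaks at BIN3 (H3K18cr change -1.00029, H3K18ac change -1.15), SSX2IP (-1.06 and -1.00042) and ARRDC3 (-1.03 and -1.0007). Just outside it lay those at RGL2 (-1.07 and -0.99998) and SUV39H2 (-1.01 and -0.99982), and an intergenic peak at chr17:2047801-2052000 (-0.99982 and -1.19). Near the DMSO minimum, the lowest members were the peaks at ADGRL1 (mean DMSO value 5.07), CD99 (5.08) and GTF2IRD2B (5.10), and the peaks at LAS1L (4.90) and TMEM255B (4.89) were left out by it.

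Among the members the median change was -1.09 for H3K18cr (lowest -1.74) and -1.2 for H3K18ac (lowest -1.75), and 381 of 499 had the larger fall in H3K18ac. The medians over the other 11696 TSS peaks with a mean DMSO value of at least 5 were -0.54 and -0.60. The members' changes were unequal between replicate numbers. For H3K18cr the member median was -1.2, -1.21 and -0.90 in numbers 1, 2 and 3, and for H3K18ac it was -0.62, -1.35 and -1.67. Over the other TSS peaks the same medians were -0.69, -0.63 and -0.29 for H3K18cr and -0.04, -0.68 and -1.07 for H3K18ac, so each replicate number shifted members and other promoters together. In 495 members both marks were lower in MS275 in all 3 numbers, as they were in 27.9% of the 29311 peaks with a mean DMSO value of at least 5. In 493 members the MS275 libraries lay below the DMSO libraries without overlap in both marks, against 23.2% of those peaks. The members were chosen on these values, so nothing is read from that difference. A reduction by 1 log2 unit in every number of both marks was seen in 11 members.

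**Figure D2:**
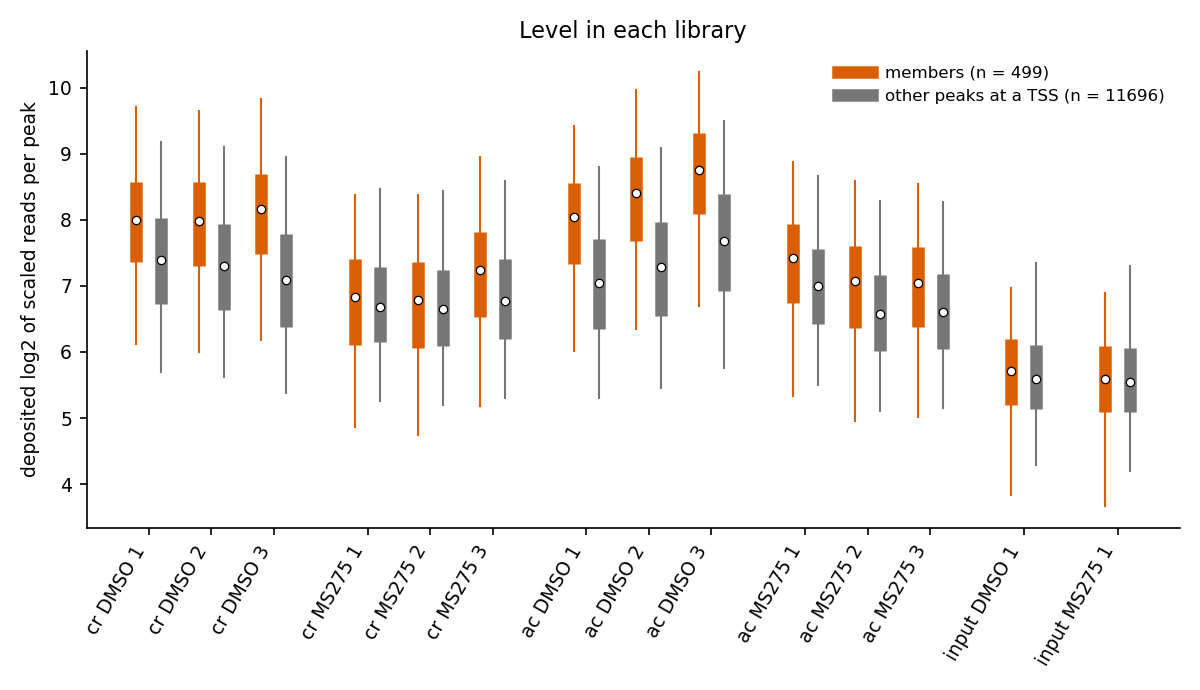
Deposited log2 of scaled reads per peak (y axis) in each ChIP and input library (x axis; cr, H3K18cr; ac, H3K18ac) for the 499 members (orange) and the 11696 other TSS peaks (grey). White points are medians, thick bars the middle 50% of peaks and thin lines the 5th to 95th percentile. Member medians lie between 7.98 and 8.76 in the DMSO ChIP libraries and between 6.79 and 7.42 in the MS275 ChIP libraries.

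The rule was also applied to 2 replicate numbers, and the change was measured in the number left out. That number still had a part in the peak list, which was called over all libraries. With number 1 left out, 525 peaks were chosen (337 of them members), and in number 1 their medians were -1.09 for H3K18cr and -0.55 for H3K18ac, beside -0.44 and 0.10 over all peaks with the same DMSO minimum. With number 2 left out, 311 peaks were chosen, with medians of -1.15 and -1.35 beside -0.41 and -0.36. With number 3 left out, 292 peaks were chosen, with medians of -0.87 and -1.66 beside -0.10 and -0.69. The peaks chosen in 2 numbers had lower medians than peaks in general in the number that was left out, in both marks. As most members lay at a TSS, the other TSS peaks are a nearer comparison. Their medians for H3K18cr and H3K18ac were -0.69 and -0.045 in number 1, -0.63 and -0.68 in number 2, and -0.29 and -1.07 in number 3. Of the peaks so chosen, 16 of 525, 211 of 311 and 85 of 292 lost 1 log2 unit of both marks in the number left out, and 504, 309 and 291 lay below the medians of all peaks there.

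How many peaks meet the rule depended on the scaling. The deposited scaling sets each library to the same number of reads, with a median over all peaks of -0.20 for H3K18cr and -0.19 for H3K18ac. TMM scaling on reads in peaks, which assumes that most peaks do not change, moved these medians to 0.04 and 0.06. Under TMM 37 peaks met the rule, each of them a member, and the member medians were -0.85 and -0.95. With libraries scaled to their reads in peaks, 4 peaks met it, the member medians were -0.69 and -0.75, and the medians over all peaks were 0.21 and 0.26. The size of the changes given here thus depended on the scaling. In the deposited scaling the shift was unequal between peaks. Its medians for H3K18cr and H3K18ac were -0.54 and -0.60 at other TSS peaks and -0.14 and -0.12 at other peaks away from a TSS. By H3K18cr change the largest members under TMM were MORF4L2 (H3K18cr -1.50, H3K18ac -1.17), TUBGCP2 (-1.32 and -1.44) and USP11 (-1.29 and -1.14).

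The input, which the rule did not use, was slightly lower at the members in MS275. Its median change was -0.12 (5th to 95th percentile -0.79 to 0.53), against -0.07 at the other TSS peaks, from 1 library per treatment. After subtraction of the input change, 1570 peaks met the rule, of which 231 were members. At narrow members the input was low and the change large, for example -2.34 at ADGRL1 and -1.58 at PIGA, where the input fell by more than either mark.

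By mean fall over both marks the first member was a 750 bp peak at GTF2IRD2B, which encodes a relative of the transcription factor TFII-I and has near-identical copies nearby, so its reads are uncertain. It held as few as 3 reads in a library. The second was the 1800 bp peak between TUBGCP2, a subunit of the gamma-tubulin complex, and the zinc finger gene ZNF511 (chr10:133307701-133309500). Its H3K18cr values were 7.32, 7.32 and 7.68 in DMSO and 5.49, 5.89 and 6.27 in MS275 (mean 7.44 ± 0.21 and 5.89 ± 0.39, SD, n = 3). Its H3K18ac values were 7.32, 8.04 and 8.22 in DMSO and 6.38, 6.18 and 5.95 in MS275 (7.86 ± 0.47 and 6.17 ± 0.21). Every MS275 library of each mark lay below every DMSO library.

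MORF4L2, a subunit shared by the NuA4 acetyltransferase and a Sin3 deacetylase complex, had adjoining members on chromosome X. At the stronger of them (chrX:103685251-103686900) H3K18cr was 6.52, 6.75 and 6.86 in DMSO and 4.87, 4.09 and 5.95 in MS275, a change of -1.74. H3K18ac was 6.54, 7.19 and 7.65 in DMSO and 5.84, 5.31 and 5.97 in MS275, a change of -1.42. The MS275 values of H3K18cr were widely spread (SD 0.93), with number 2 lowest, and did not reach the DMSO range.

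ATAD3A encodes a mitochondrial membrane ATPase with a near-identical neighbour, ATAD3B. Its member (chr1:1510951-1512300) had H3K18cr values of 7.86, 7.76 and 7.67 in DMSO and 6.44, 5.99 and 6.49 in MS275, and H3K18ac values of 7.70, 8.04 and 8.48 in DMSO and 6.93, 6.25 and 6.26 in MS275. At NFX1, a transcription factor gene (chr9:33289501-33291900), H3K18cr was 7.94, 7.73 and 8.39 in DMSO and 6.38, 6.63 and 7.10 in MS275. Its H3K18ac was 8.37, 8.63 and 9.10 in DMSO and 7.18, 7.03 and 6.96 in MS275. At both genes the groups did not overlap. The remaining peaks among the first 10 were those at FAM234A (-1.50 in each mark), ADGRL1 (-1.41 for H3K18cr and -1.55 for H3K18ac), PIGA (-1.46 and -1.48), which makes the first intermediate of GPI anchors, the deubiquitinase gene USP11 (-1.53 and -1.38) and the promoter shared by FUZ and the Mediator subunit MED25 (-1.37 and -1.52). At ADGRL1 and PIGA the input fell by more than either mark, so neither mark fell relative to input there. Of all members, 66 had fewer than 30 reads in at least 1 ChIP library, and the median of the lowest read number was 74.0.

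The members with the highest DMSO values were wide peaks of 12900 to 25800 bp, since the value counts reads over the whole peak and not per base. The highest was a 22350 bp peak outside protein-coding genes that the table labels MIR23A, a microRNA gene that lies outside it (chr19:13837951-13860300). There H3K18cr was 11.91, 11.89 and 11.94 in DMSO and 10.53, 10.49 and 11.15 in MS275, and H3K18ac was 11.52, 12.02 and 12.35 in DMSO and 10.98, 10.68 and 10.59 in MS275. The next was the 23550 bp peak labelled MIRLET7BHG, the host of let-7 microRNAs, with changes of -1.03 and -1.21. NR4A1, an immediate early gene for an orphan nuclear receptor, had the widest member (25800 bp), with changes of -1.01 and -1.18, and its relative NR4A2 had changes of -1.05 and -1.22 over 17400 bp. TNRC18, an intron of MBNL2 (a splicing regulator), CRIP1 with TEDC1, MNT (a repressor of MYC target genes), the peak labelled C2orf57 and HNRNPF (a splicing factor) completed the first 10, with changes from -1.30 to -1.0. The 5 widest members were those labelled NR4A1, MIRLET7BHG, MIR23A, MBNL2 and NR4A2, which were all among the 10 with the highest values.

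Most members lay at gene starts. A TSS of a protein-coding transcript (GENCODE 44) was within 1 kb of 461 members, a share of 92.4% (95% Wilson interval 89.7 to 94.4), against 11696 of the 28812 other peaks with a mean DMSO value of at least 5 (40.6%, interval 40 to 41.2). Intervals cover counting error only. Of the 38 other members, 5 lay in an exon, 5 in an intron and 28 outside protein-coding genes. The share was similar in the 1263 peaks that met the fall in H3K18ac alone (91.0%, interval 89.3 to 92.4) and was 81.3% (75.8 to 85.8) in the 230 that met it in H3K18cr alone. The location at a TSS was therefore shared with the peaks that met the fall in H3K18ac alone.

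Members were compared with other TSS peaks by bidirectional starts and by their level in DMSO. Starts of genes on opposite strands lay in 110 of the 461 TSS members (23.9%, interval 20.2 to 28.0) and in 12.3% (11.7 to 12.9) of the other TSS peaks. In peaks falling in H3K18ac alone, 19.9% (17.8 to 22.2) were bidirectional, TSS or not, against 22.0% (18.6 to 25.9) of all members and 10.9% (7.47 to 15.6) of peaks falling in H3K18cr alone. In DMSO the ChIP libraries exceeded the input by a median of 2.57 log2 units at TSS members and 1.65 at other TSS peaks, and by 2.25 and 2.08 at peaks falling in H3K18ac alone and in H3K18cr alone. The members were 0.579% of the 7084 TSS peaks with an excess of 1 to 2, 24.7% of the 793 with an excess of 2.5 to 3 and 52.9% of the 119 with a larger one. As the DMSO libraries also enter the rule, this relation is a description. Width was alike (median 2850 bp for TSS members and 2700 bp for other TSS peaks), as was GC content (54.7% for each), and the ratio of observed to expected CpG was 0.680 against 0.617.

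The members were unevenly spread over the chromosomes. Of the TSS peaks on chromosome X, 58 of 309 were members (18.8%, Wilson interval 14.8 to 23.5), against 403 of 11848 on the autosomes (3.40%, interval 3.09 to 3.74). The autosome with the largest share was chromosome 21, with 10 of 105 (9.52%, 5.26 to 16.6), whose interval overlapped that of X. Chromosome 15 had the smallest, with 7 of 390 (1.79%, 0.872 to 3.66). Chromosome 19 had the most members among autosomes, 46 in all. Of the peaks that met the rule in H3K18cr alone 16.1% lay on X (11.9 to 21.4), and of those that met it in H3K18ac alone 5.07% (3.99 to 6.42), beside 13.2% of the members (10.5 to 16.5) and 2.15% of other TSS peaks. The difference reached beyond the members, since the median change over all TSS peaks of X was -0.82 for H3K18cr and -0.89 for H3K18ac, against -0.55 and -0.61 on the autosomes. It was seen in each replicate number. For H3K18cr the X medians were -0.95, -0.95 and -0.52 beside autosomal medians of -0.70, -0.65 and -0.30, and for H3K18ac they were -0.30, -1.02 and -1.44 beside -0.06, -0.69 and -1.08. Peaks of X away from a TSS had medians of -0.65 and -0.61. The input change on X was -0.12 at TSS peaks against -0.07 on the autosomes. Input reads per kb in DMSO were lower on X, 9.56 against 17.0 to 21.6 on single autosomes, and so was the width of TSS peaks, with a median of 1650 bp on X. The part of these differences in the X share was not tested. Of the 66 members on X, 3 lay in the pseudoautosomal regions shared with Y, including those at CD99 and GTPBP6.

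**Figure D3:**
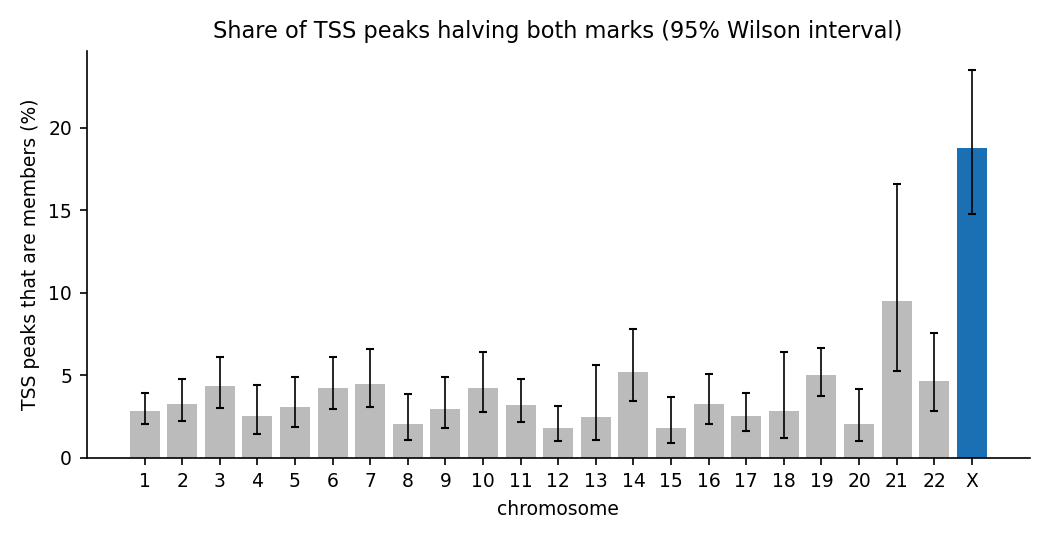
Share of TSS peaks with a mean DMSO value of at least 5 that are members (y axis, %) on each chromosome (x axis). Bars start at 0 and whiskers are 95% Wilson intervals. Chromosome X (blue, 18.8%) lies above every autosome (grey, 1.79 to 9.52%), with an interval that overlaps only that of chromosome 21.

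Members were mostly single events along a chromosome. Another member lay within 10 kb of 20 members and within 100 kb of 117. Other peaks near a member changed more than other peaks in general. The 130 peaks away from a TSS within 10 kb of a member had a median H3K18cr change of -0.30 and a median H3K18ac change of -0.32, against -0.14 and -0.12 over all 17116 such peaks. At TSS peaks within 10 kb the medians were -0.68 and -0.75 (159 peaks) against -0.54 and -0.60.

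Promoter sequences were compared over the RefSeq windows from 250 bases before to 50 after the gene start, which were found for 512 of the 586 genes with a member at their TSS, for 9412 genes with another peak at their TSS, and for 27305 genes in all. The cAMP response element TGACGTCA, bound by CREB and ATF factors, occurred on either strand in 34 of the 512 windows (6.64%, Wilson interval 4.79 to 9.14), in 3.19% (2.85 to 3.56) of those with another peak and in 1.98% of all. The ETS site CCGGAAG occurred in 24.2% (20.7 to 28.1), 19.2% (18.4 to 20) and 10.7%, and CCAAT, bound by NF-Y, in 42.2% (38 to 46.5), 36.4% (35.5 to 37.4) and 35.7%. The E-box CACGTG occurred in 13.3% (10.6 to 16.5), 9.97% (9.38 to 10.6) and 7.43%. The intervals of members and other peaks did not overlap for the first 3 of these motifs, and for the E-box they met at 10.6%. For the SP and KLF box GGGCGG (71.1% against 71.6%), the NRF1 core GCATGCGC (4.30% against 5.58%), AAGATGGCG of YY1 (5.27% against 3.97%), CTCGCGAG (1.95% against 2.08%), TATAAA (5.47% against 5.37%), TGANTCA of AP-1 (2.73% against 4.45%) and CTTTGAT of TCF and LEF (1.76% against 1.22%) they overlapped. The shares of these 7 among all windows were 44.6, 3.27, 1.85, 1.06, 12, 7.76 and 2.64%. Matches may overlap each other, genes of a bidirectional promoter share sequence, and a match is a string of letters and not a measured site.

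RNA-seq was not used to choose the members and gives an independent readout. Genes with a member at their TSS were well expressed in DMSO. Their median level was 8.48 CPM per kb of exon in 559 genes tested, against 5.54 in 10923 genes with another peak at their TSS, and 38.5% of them were in the top 25% of genes against 27.5%. In each of the 4 replicate numbers the median log2 change of these genes lay below 0, at -0.14, -0.08, -0.12 and -0.13. Over all genes tested the same medians were between -0.00094 and 0.03.

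In the fit without the replicate number, edgeR's quasi-likelihood test called 0 of the 559 member genes at an adjusted p under 0.05, with 15 (2.68%) at an unadjusted p under 0.05. It called 1 of 14961 genes in all (0.00668%), with 987 (6.60%) at an unadjusted p under 0.05. DESeq2 called 1 of 570 member genes, ADI1, as lower. It called 161 of 16218 genes in all (0.993%), of which 125 rose and 36 fell (0.222%). The median log2 fold change was -0.12 for member genes (middle 50% from -0.27 to 0.04), 0.01 for genes with another peak at their TSS and 0.01 for all genes, and 70.7% of member genes lay below 0 against 48.7% of all. Whether same-numbered RNA libraries were pairs is not stated in the sources used here. Their deviations correlated at 0.151 to 0.46, so they were treated as pairs in a further fit with the replicate block. Number 2 was not singled out, since DMSO 2 correlated more with MS275 4 (0.239) than with MS275 2 (0.151). Pairs named below are libraries of the same number, and the calls of the paired fit rest on that assumption. In the paired fit 77 of the 559 member genes fell (13.8%) and 11 rose (1.97%), while 6.55% of all 14961 genes fell and 7.83% rose, 14.4% in all. At an unadjusted p under 0.05 it held 35.4% of member genes and 29.2% of all genes. The median was -0.13. Of the genes with another peak at their TSS, 7.70% fell and 9.61% rose. Genes whose TSS peak fell in H3K18ac alone resembled the member genes, with 14.2% falling, 3.18% rising and a median of -0.09. Those with a peak falling in H3K18cr alone had 7.96%, 1.99% and -0.09. Of the 60 X-linked member genes tested, 7 fell and 1 rose in the paired fit, with a median of -0.12.

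The paired count depended on which libraries were kept. Without replicate number 1, 2 or 4 it was 33, 37 or 34 member genes in place of 88, and without number 3 it was 113. Member falls outnumbered member rises each time, by 29 to 4, 32 to 5 and 27 to 7 without number 1, 2 or 4, and by 96 to 17 without number 3. Over all genes the same fits called 393 falls and 575 rises without number 1, 440 and 554 without 2, 407 and 630 without 4, and 1327 and 1257 without 3. The 559 genes include neighbours that share a promoter, and among the 328 with a member that serves their TSS alone the paired fit called 50 falls and 6 rises.

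**Figure D4:**
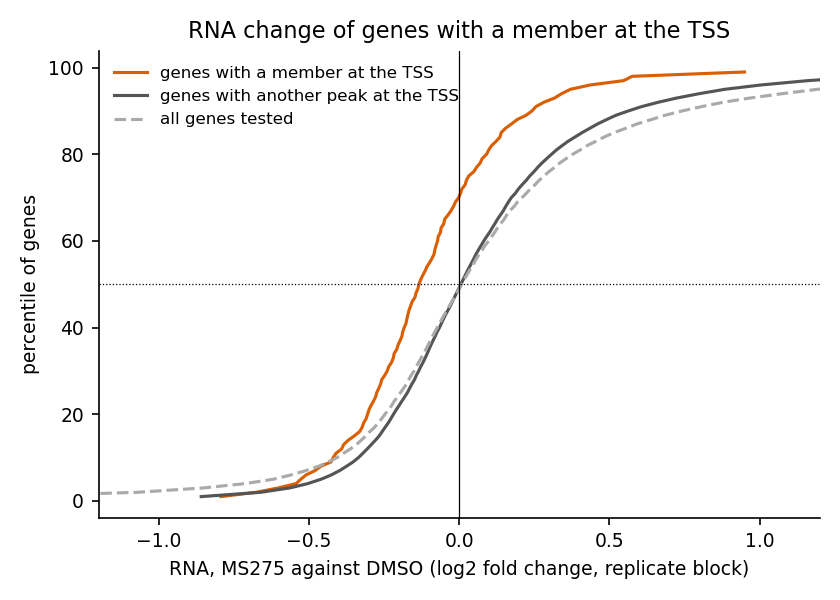
Percentile of genes (y axis) at each log2 fold change of RNA, MS275 against DMSO, in the fit with the replicate block (x axis). The curve of the 559 genes with a member at their TSS (orange) crosses 50% at -0.13, left of the curves of the 10923 genes with another TSS peak (dark grey) and of all 14961 genes (dashed), which cross near 0.01.

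Among member genes called in the paired fit, the largest RNA falls were those of ADI1, WDR74, GTPBP6, TMED1 and ZNHIT2. ADI1, an enzyme of the methionine salvage pathway, had 96.8, 79.5, 94.2 and 71.0 CPM in DMSO and 44.5, 45.8, 65.3 and 40.5 CPM in MS275. All MS275 values lay below all DMSO values, and the paired log2 fold change was -0.81 ± 0.10 (SE, n = 4 pairs, edgeR adjusted p = 0.000431, against 0.332 without the block). Its member had changes of -1.01 and -1.07. WDR74, a ribosome assembly factor, had 109, 69.3, 132 and 65.6 CPM in DMSO and 61.7, 44.4, 94.8 and 37.4 CPM in MS275, which overlapped between groups but fell in each pair (-0.69 ± 0.09, adjusted p = 0.000488 in edgeR with the block).

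GTPBP6, a mitochondrial GTP-binding protein, had 51.7, 39.0, 74.3 and 30.8 CPM in DMSO and 26.6, 24.4, 47.9 and 22.8 CPM in MS275, lower in 4 of 4 pairs (-0.68 ± 0.11). As it lies in a region shared by X and Y, its copies cannot be told apart. TMED1, a cargo receptor of the early secretory pathway, was also lower in 4 of 4 pairs (32.8, 27.6, 52.2 and 24.2 against 15.9, 23.1, 31.7 and 15.1 CPM). ZNHIT2, a cofactor of chaperone complexes that assemble snRNPs, had 22.0, 17.9, 24.5 and 12.5 CPM in DMSO and 10.4, 9.15, 24.7 and 7.92 CPM in MS275. Number 3 did not fall, and the value was -0.67 ± 0.18 (edgeR adjusted p = 0.0282 with the block and 0.879 without).

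The largest rises among called member genes were those of ODF2L, TBCCD1, WDR54, NR4A1 and EGR1, whose promoters had a lower share of reads in both marks by the rule. ODF2L, a centriolar protein gene, had 13, 11.8, 8.53 and 14.7 CPM in DMSO and 19.7, 15.6, 20.2 and 19.8 CPM in MS275 (paired log2 fold change 0.66 ± 0.17, edgeR adjusted p = 0.0202). TBCCD1, which positions the centrosome, rose from 14.0, 12.5, 12 and 16.8 to 24.2, 19.7, 18.0 and 20.2 CPM. WDR54 rose from 26.5, 31.1, 37.2 and 32.3 to 39.2, 38, 73.4 and 41.4 CPM. For these 3 genes the groups did not overlap. EGR1, an immediate early transcription factor, had 82.5, 61.4, 42.3 and 92.5 CPM in DMSO and 120, 84.4, 48.5 and 134 CPM in MS275, higher in 4 of 4 pairs (0.44 ± 0.08, adjusted p = 0.0053 in edgeR with the block). NR4A1 had 34.2, 8.55, 9.16 and 7.20 CPM against 33.7, 15.6, 13.6 and 12.2 CPM, where number 1 was high in both groups and did not rise (0.54 ± 0.16, adjusted p = 0.0468 in edgeR with the block).

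**Figure D5:**
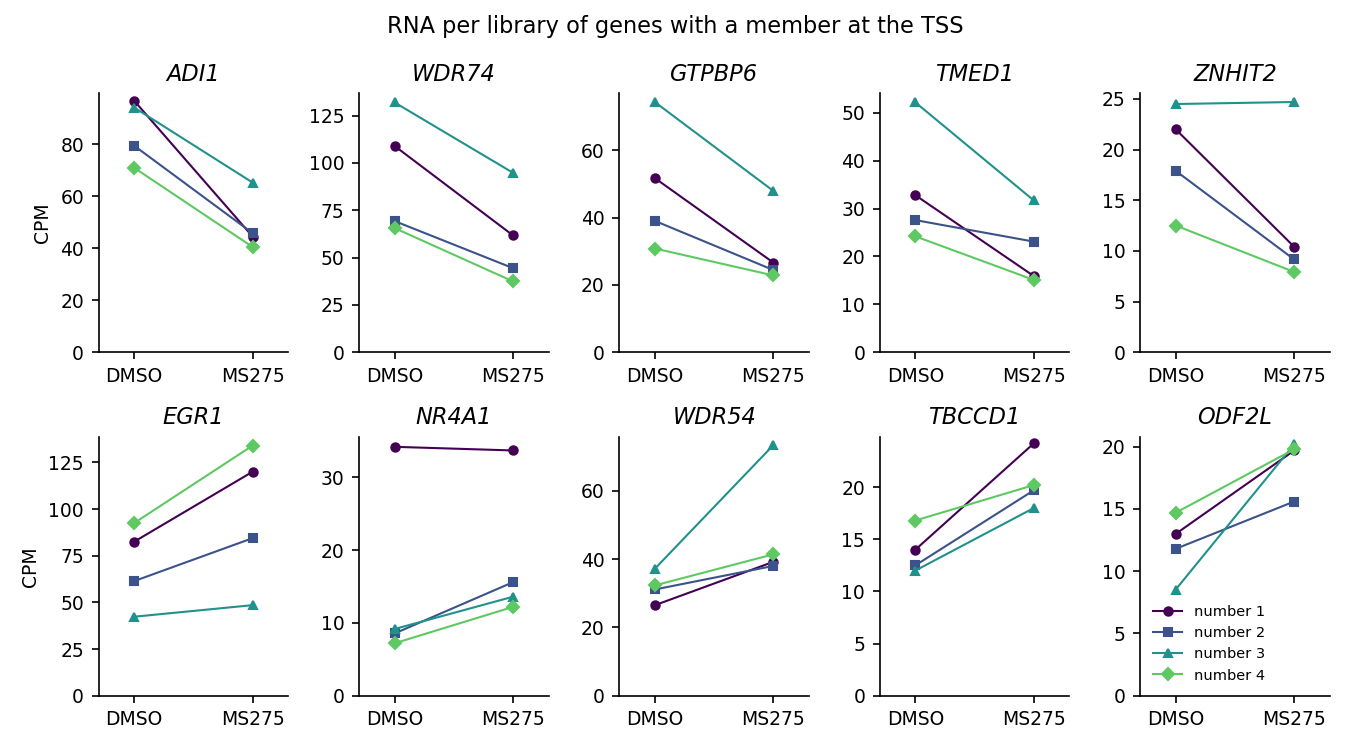
RNA level in CPM (y axis, from 0) in the 4 DMSO and 4 MS275 libraries (x axis), with same-numbered libraries joined, for the 5 member genes with the largest falls (top row) and the 5 with the largest rises (bottom row) among those called in the fit with the replicate block. Lines run down in all pairs but number 3 of ZNHIT2, and up in all pairs but number 1 of NR4A1.

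Genes of AP-1 and MAPK feedback were the list with the largest share of members. Of 23 AP-1 and MAPK feedback genes with a TSS peak, 5 (21.7%) had a member, namely FOS, FOSB, JUND, IER2 and EGR1, where 4.75% of the 12344 genes with a TSS peak did. AP-1 factors are made of FOS and JUN proteins and are induced by growth signals. At FOS H3K18cr was 9.87, 9.98 and 10.01 in DMSO and 8.47, 8.63 and 9.22 in MS275, and H3K18ac was 9.63, 10.19 and 10.23 in DMSO and 8.82, 8.74 and 8.57 in MS275. At EGR1 H3K18cr was 9.05, 9.10 and 9.16 in DMSO and 7.69, 7.78 and 8.52 in MS275, and H3K18ac was 8.93, 9.36 and 9.73 in DMSO and 8.35, 8.13 and 8.29 in MS275. The MS275 values lay below the DMSO values throughout.

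In the paired RNA fit EGR1 and IER2 rose (log2 fold change 0.34 for IER2), and none of the 5 genes fell. Of the 23 tested genes of the list 6 rose and 1 fell, where 7.83% of all genes rose and 6.55% fell. The fit without the replicate block and DESeq2 each called 0 of the 5. FOS had 70.8, 28.8, 29.9 and 41.6 CPM in DMSO and 81.6, 49.0, 27.4 and 82.8 CPM in MS275 and did not pass (0.47 ± 0.15, adjusted p = 0.0597 in edgeR with the block). Neither did FOSB (0.55 ± 0.23) and JUND (0.11 ± 0.06). SIK2, a kinase that restrains CREB coactivators, rose by 0.40 ± 0.10 on the log2 scale in that fit.

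Genes of the acylation machinery were also among the members. Of 37 genes of class I deacetylases and their corepressors with a TSS peak, 6 (16.2%, where 4.75% of all genes with a TSS peak did) had a member: MORF4L2, ING1, ING2, SIN3A, RBBP4 and RBBP7, none of which encodes a deacetylase itself. ING1 (H3K18cr -1.30, H3K18ac -1.50) and ING2 (-1.32 and -1.33) bind methylated H3K4 in Sin3 complexes, whose scaffold is SIN3A (-1.12 and -1.21). The peaks at HDAC1 (-0.56 and -0.44), HDAC2 (-0.63 and -0.53) and HDAC3 (-0.21 and -0.54) were not members. Of 22 acyltransferase and reader genes with a TSS peak, 4 (18.2%) had a member: the acetyltransferase KAT5 (-1.38 and -1.15), the bromodomain genes BRD9 (-1.08 and -1.30) and TAF1 (-1.14 and -1.11), and YEATS4 (-1.24 and -1.14), which encodes a YEATS domain. The paired edgeR fit called 0 of these 10 genes, with 1 at an unadjusted p under 0.05, where it called 14.4% of all genes and had 29.2% at that unadjusted p. DESeq2 called 0 of the 10, against 0.993% of all genes. Of all tested genes of these lists, 2 of 38 rose and 2 fell in the first, and 2 of 22 rose and 2 fell in the second.

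Several housekeeping lists held members above the general share. Of 63 splicing factor genes with a TSS peak 10 had a member (15.9%), among them HNRNPL (-1.16 and -1.39), HNRNPH2 (-1.16 and -1.36) and SF3A1 (-1.02 and -1.35). The RNA of 2 of the 10 fell in the paired fit, as did 21 of the 66 genes of the list that were tested, where 6.55% of all genes fell. The fit without the replicate block and DESeq2 each called 0 of the 10. Of 46 DNA replication genes 6 had a member (13%). The RNA of 4 of them fell in the paired fit, those of the replicative helicase subunits MCM5 (-0.43 ± 0.06) and MCM7 (-0.30 ± 0.05), the flap endonuclease FEN1 (-0.24 ± 0.06) and the clamp loader subunit RFC2 (-0.29 ± 0.08). POLA1 (0.26 ± 0.09) and POLD3 (-0.39 ± 0.16) did not pass, and 12 of the 45 tested genes of the list fell, where 6.55% of all genes fell. The fit without the replicate block and DESeq2 each called 0 of the 6. Of 65 RNA polymerase II and Mediator genes, 6 had a member (9.23%), with MED20 at -1.14 and -1.44 and MED29 at -1.09 and -1.33. They include GTF2IRD2B, whose reads are uncertain. The lists were written with earlier results of these data known, share genes, and were not tested.

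Further lists ranged from above the general share of 4.75% to below it. DNA repair genes had 6 members of 50 with a TSS peak (12%), ubiquitin-specific proteases 4 of 44 (9.09%), tubulins 1 of 12 (8.33%), aminoacyl-tRNA synthetases 3 of 37 (8.11%), colorectal cancer drivers 2 of 25 (8%) and gamma-tubulin and centrosome genes 2 of 27 (7.41%). C2H2 zinc finger genes named ZNF had 18 members of 307 with a TSS peak (5.86%), including ZNF487 (-1.31 and -1.33) and ZNF497 (-1.37 and -1.25), and the paired edgeR fit called 0 of the 18, with 4 at an unadjusted p under 0.05 (14.4% and 29.2% of all genes), while DESeq2 called 0. Of the 367 tested genes of that list 13 rose and 9 fell. Mitochondrial ribosomal protein genes had 5 of 75 (6.67%), with MRPS21 at -1.47 and -1.25, while cytosolic ribosomal protein genes had 3 of 83 (3.61%), namely RPL10 (-1.17 and -1.44), RPS13 (-1.10 and -1.37) and RPL39 (-1.17 and -1.24). Subunits of oxidative phosphorylation had 1 of 79 (1.27%), NDUFA5 (-1.03 and -1.04). Proteasome genes had 2 of 46 (4.35%), translation initiation factors 2 of 47 (4.26%) and mitochondrial import and carrier genes 2 of 63 (3.17%). Vesicle and Golgi genes had 7 of 138 (5.07%), led by COPB2 (-1.26 and -1.44). No member (0) lay at the TSS of 52 histone genes, 41 mitosis and spindle genes, 20 CDK inhibitor and G1 cyclin genes or 15 Wnt target genes with a peak. The cell cycle inhibitor CDKN1A (H3K18cr -0.59, H3K18ac -0.57), the apoptosis gene BBC3 (-0.75 and -0.89) and the tight junction gene CLDN7 (-0.98 and -1.16) had TSS peaks that did not meet the rule. The paper's ChIP-qPCR, whose primers include the starts of these genes, found more H3K18cr at promoters after MS275. For ChIP-seq the paper proposes that a larger rise outside TSS regions could lower their relative share of reads.

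The promoters of the members were also marked in normal mouse colon epithelium, which the rule did not use. Of the 586 member genes 516 had a mouse gene of the same symbol, and 452 of these (87.6%, Wilson interval 84.5 to 90.2) carried H3K18cr in colon at a distance of up to 1 kb from a gene start, against 80.4% (79.6 to 81.1) of the 10381 genes with another TSS peak in HCT116. For H3K4me3, a mark of active promoters, the shares were 98.3% (96.7 to 99.1) and 94.3% (93.8 to 94.7). The peak height in colon was alike, with a median of 168 scaled reads of H3K18cr for member genes and 167 for the others. Matching by symbol leaves out renamed genes, and the colon libraries were scaled apart from those of HCT116.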

How the data were processed

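HCT116 ChIP-seq libraries of H3K18cr (antibody PTM-517) and H3K18ac (ab1191), inputs and RNA-seq libraries were grouped by the labels. The authors trimmed reads with Trim Galore, mapped ChIP-seq reads with Bowtie2 to GRCh38 (mouse colon to GRCm38), removed duplicates, and called 1 peak list per table with the MACS peak finder in SEQMONK. The HCT116 table holds deposited log2 values of read counts times 1 factor per library (1.00 to 1.65), with 0.9 read in place of 0. The deposited colon ChIP-seq tables hold the same kind of signal without the log2, as scaled reads. The RNA-seq tables hold counts per gene as the authors deposited them. Their mapper is HiSat2 in the methods and TopHat2 in the submitters' processing notes, and whether counting used strand was not given, so antisense and overlapping genes cannot be told apart. From the deposited log2 values, 100% came out as whole reads (to within 0.1 read) after division by the factor.

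The members and gene lists were chosen with earlier results of these data known. Members were named by rule: the 10 largest mean falls, the 10 highest DMSO means, the 5 widest, the 3 nearest on each side of the threshold, the 5 largest RNA rises and 5 largest falls among called genes (in the fit with the replicate block, since the other called under 10), genes the study names, and up to 4 per list. SIK2 and FRAT1 were named after their values were seen. IER2, RBBP4, RBBP7, MCM5 and POLD3 were named beyond these rules, to give the members of their lists in full. Peaks were placed by TSS of protein-coding transcripts (GENCODE 44, and M21 for mouse). Of 14961 genes tested, 13300 were matched to GENCODE. RNA was tested with edgeR 4.0.16 (quasi-likelihood, TMM, filterByExpr, Benjamini-Hochberg over all genes) in R 4.3.3, with DESeq2 1.42.0 as an alternative. The study states 4 biological replicates of RNA. The methods give 2 replicates for H3K18cr in HCT116, whereas the labels and the table hold 3 libraries per treatment, which were used. For the ChIP libraries the sources used here do not say whether numbers mark separate cultures. Deviations of same-numbered RNA libraries correlated at 0.226, 0.151, 0.433 and 0.460, each above 0.1, so the numbers were treated as pairs. Number 2 was not singled out by its own pair, since DMSO 2 with MS275 4 (0.239) and DMSO 4 with MS275 2 (0.219) correlated more. The edgeR fits were tested on simulated data. Shares have 95% Wilson intervals, computed with Python 3.11.15, pandas 2.3.3 and numpy 2.4.6.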

Additional observations from a re-analysis of the deposited data

Results flagged for a closer look

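In 6 of 28 groups of 4 RNA libraries, those of the genes whose values per library are given and of JUND, IER2 and SIK2, 1 library stood apart from the other 3 by more than Dixon's 95% critical value for the gap over the range. Chance alone flags about 1 in 20 groups. They were replicate 1 of NR4A1, at 34.2 CPM in DMSO and 33.7 CPM in MS275, replicate 3 in MS275 for GTPBP6 (47.9 CPM), ZNHIT2 (24.7 CPM) and WDR54 (73.4 CPM), and replicate 2 in MS275 for ODF2L (15.6 CPM). In NR4A1 the same replicate number was high in both treatments.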

How the results depend on the processing

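The number of member peaks (499) was 37 under TMM scaling, 4 when libraries were scaled to reads in peaks, 2250 and 63 with a fall of 0.8 and of 1.2, and 1570 with ChIP over input. Leaving out a replicate number gave 292 (without 3) to 525 (without 1), of which 212 to 337 were members, and without number 2 it was 311. The replicate block, read as a fall in all 3 numbers of both marks, was met by 495 members, which were chosen on the same values, so this says nothing about stability (8166 of the 29311 peaks met it). The other alternatives stayed within 1.5 times. The share at a TSS (92.4%) was 97.0% with starts of all genes, 100.0% for members under TMM scaling, and 90.1 to 95.9% without 1 replicate number. For RNA calls (0 of 559) the replicate block gave 88 and DESeq2 1. In fits with the replicate block chosen after seeing the data, 33, 37, 113 and 34 genes were called without RNA replicate number 1, 2, 3 and 4, 56 with 1 gene per TSS, 80 without chromosome X, and 55, 60 or 73 when members were chosen without 1 ChIP replicate number. No result changed direction, and the median RNA change lay between -0.15 (paired fit without number 2) and -0.10 (members under TMM scaling) over all these fits. The cause of the dependence on fall size and on input was not tested. Input from 1 library per treatment, and as few as 3 reads in a member, limit the precision of narrow peaks, and without added reference chromatin a common change of all peaks cannot be told apart from scaling.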
